A study of Homo sapiens with 12 samples.

Results

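The genes described here are the subunits of the transcription factor NF-kB, the proteins that hold it back or switch it on, and a set of genes that it is known to regulate. They were chosen by symbol and number 35 of the genes on the array. Cytokines other than TNF and LTB, chemokines and prostaglandin genes were left out. The choice was made with earlier results of these data known, so the shares of members given below are descriptive. Of these, 33 had a probe set with exactly 1 gene symbol, out of 17958 genes compared in all, and BIRC3 and TRAF2 were not analysed here. A gene with several such probe sets is represented by the one whose signal, averaged over the 12 arrays, was highest.

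The cells were 231BR, a brain-seeking derivative of the human breast cancer line MDA-MB-231, which lacks estrogen receptor alpha. They carried EGFP and were kept with mouse astrocytes or alone, under 10 nM estradiol or under vehicle, and were sorted by EGFP after 24 h of co-culture. The 4 groups of 3 arrays each are called estradiol with astrocytes, vehicle with astrocytes, estradiol alone and vehicle alone. All arrays come from 1 derived cell line, and nothing in the labels says that replicates came from separate cultures. The p-values therefore refer to the spread between these samples, which can be a technical one. All values are log2 signals of probe sets on human arrays. Each probe set responds to its own probes, so levels of different genes are compared only to group genes by their mean signal.

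NF-kB is a dimer of Rel-family proteins that rests in the cytoplasm bound to an IkB protein. Signals from TNF receptors, Toll-like receptors and the interleukin-1 receptor pass through adaptors to the IkB kinases, which mark IkB for destruction, and the freed dimer enters the nucleus and binds κB sites. Many of its targets, among them NFKBIA and TNFAIP3, encode proteins that shut the pathway down again, so that their RNAs are widely used as a readout of its activity. MDA-MB-231 cells are known for constitutive NF-kB activity.

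κB sites lie close to the start of several of these genes, and the stretches around those of 6 genes that the results below turn on are shown here, with every base of a match to the κB consensus in capitals. They are read 5′ to 3′ along the gene's strand from the RefSeq promoter windows of GRCh38.p14, which run from 250 bases before to 50 bases after each start. NFKB1 is at chr4:102501285-102501344 (plus strand), REL at chr2:60881502-60881562 (plus strand), NFKBIA at chr14:35404796-35404855 (minus strand), TNFAIP3 at chr6:137867167-137867238 (plus strand), PTX3 at chr3:157436728-157436788 (plus strand) and VCAM1 at chr1:100719655-100719714 (plus strand).
NFKB1: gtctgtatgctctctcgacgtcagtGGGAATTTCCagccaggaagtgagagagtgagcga
REL: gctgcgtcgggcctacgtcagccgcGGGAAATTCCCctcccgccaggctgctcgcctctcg
NFKBIA: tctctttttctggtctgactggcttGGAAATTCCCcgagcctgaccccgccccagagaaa
TNFAIP3: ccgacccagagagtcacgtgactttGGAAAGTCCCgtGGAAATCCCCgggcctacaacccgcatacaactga
PTX3: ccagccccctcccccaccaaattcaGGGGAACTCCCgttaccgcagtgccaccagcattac
VCAM1: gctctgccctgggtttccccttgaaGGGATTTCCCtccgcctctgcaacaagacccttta
The match in NFKB1 runs from base −49 to −40 before the start, that in REL from −47 to −37, that in NFKBIA from −81 to −72 and that in PTX3 from −97 to −87. TNFAIP3 holds 2 separate matches between −67 and −46, and VCAM1 has 1 from −62 to −53. On either strand, and counting overlapping matches, the consensus was found in at least 1 window of 16 of the 30 members that the promoter table holds (53.3%), against 7.09% of 27305 genes. A window with a match was present for 6 of 11 members that fell with astrocytes in the test over both treatments, for 1 of 3 that rose and for 8 of 14 that did not pass. A match is a stretch of letters and does not show that a factor binds there.

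On arrays of cells kept with astrocytes the signals spanned a narrower range than on arrays of cells alone. The SD of the log2 values over all probe sets of an array was 1.62 to 2.10 in estradiol with astrocytes and 1.82 to 2.04 in vehicle with astrocytes, against 2.12 to 2.20 in estradiol alone and 2.04 to 2.22 in vehicle alone. Replicate 2 of estradiol with astrocytes was the lowest, followed by replicate 2 of vehicle with astrocytes. Of 7 markers of MDA-MB-231 cells 4 fell with astrocytes and none rose in the test over both treatments, and their mean log2 signal per array was 8.56 to 9.98 in estradiol with astrocytes and 9.52 to 9.99 in vehicle with astrocytes, against 10.06 to 10.35 in estradiol alone and 9.94 to 10.36 in vehicle alone. Over all genes 24.5% rose and 23.0% fell in that test, and weak signals mostly rose. The median difference was 0.46 for all genes with a mean signal of 3.5 to 4.0 and 0.45 for 4.0 to 4.5. Of 13 measured microglia and macrophage markers 7 rose (53.8%) and none fell, SPI1 by 1.28 and CD14 by 0.95, and their median difference was 0.67. The mean of the 13 per array was 4.08 to 5.22 and 4.19 to 4.51 in the estradiol and vehicle groups with astrocytes, against 3.77 to 3.91 and 3.71 to 4.06 in the estradiol and vehicle groups alone. Of 12 astrocyte markers 5 rose, with GFAP at 0.95, and 3 fell, with SLC1A3 at −0.94, and their mean per array was 4.83 to 5.22 and 4.83 to 4.99 with astrocytes, against 4.74 to 4.89 and 4.75 to 4.94 alone. Of 6 markers that MDA-MB-231 cells lack, ESR1, the estrogen receptor alpha gene, rose by 0.80 (limma adjusted p = 0.0256) and none fell, and their mean per array was 4.41 to 5.10 and 4.58 to 4.99 with astrocytes, against 4.29 to 4.56 and 4.33 to 4.5 alone. When the array SD was a covariate in the fit, 1 of the 7 MDA-MB-231 markers rose and none fell, with a median of −0.04 against −0.52 without the covariate, and none of the 6 that these cells lack passed. In that fit 2 of the microglia and macrophage markers and 1 astrocyte marker rose and 2 astrocyte markers fell. Over all genes 8.57% rose and 5.82% fell there. Since the array SD comes from the same signals and goes with co-culture, that fit can also take out real astrocyte differences. The part of other cells' RNA in the results below was not tested, and in sorted bulk RNA fewer cells of a type and less RNA per cell cannot be told apart.

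The first question was how NF-kB genes differed between cells kept with astrocytes and cells alone, taken as the mean of the vehicle and estradiol comparisons, 6 arrays against 6. Of the 33 members 14 fell, among them the subunit genes NFKB1, REL and RELB, the inhibitors NFKBIA and TNFAIP3 and the targets PTX3 and SOD2. Only TNF, VCAM1 and TNFAIP6 rose, and 16 did not pass (limma, Benjamini-Hochberg adjusted p under 0.05 over all genes). Lower calls made up 42.4% of the members, against 23.0% of all 17958 genes, and higher calls 9.09%, against 24.5% of all genes. The median log2 difference was −0.37 over the members and 0.07 over all genes, and 24 of 33 members had a negative difference (72.7%, against 47.1% of all genes). All 6 arrays with astrocytes lay below all 6 arrays alone for 13 members (39.4%), against 11.3% of all genes. They lay above them for 3 members, RELA, TNF and VCAM1 (9.09%, against 12.2% of all genes).

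**Figure D1:**
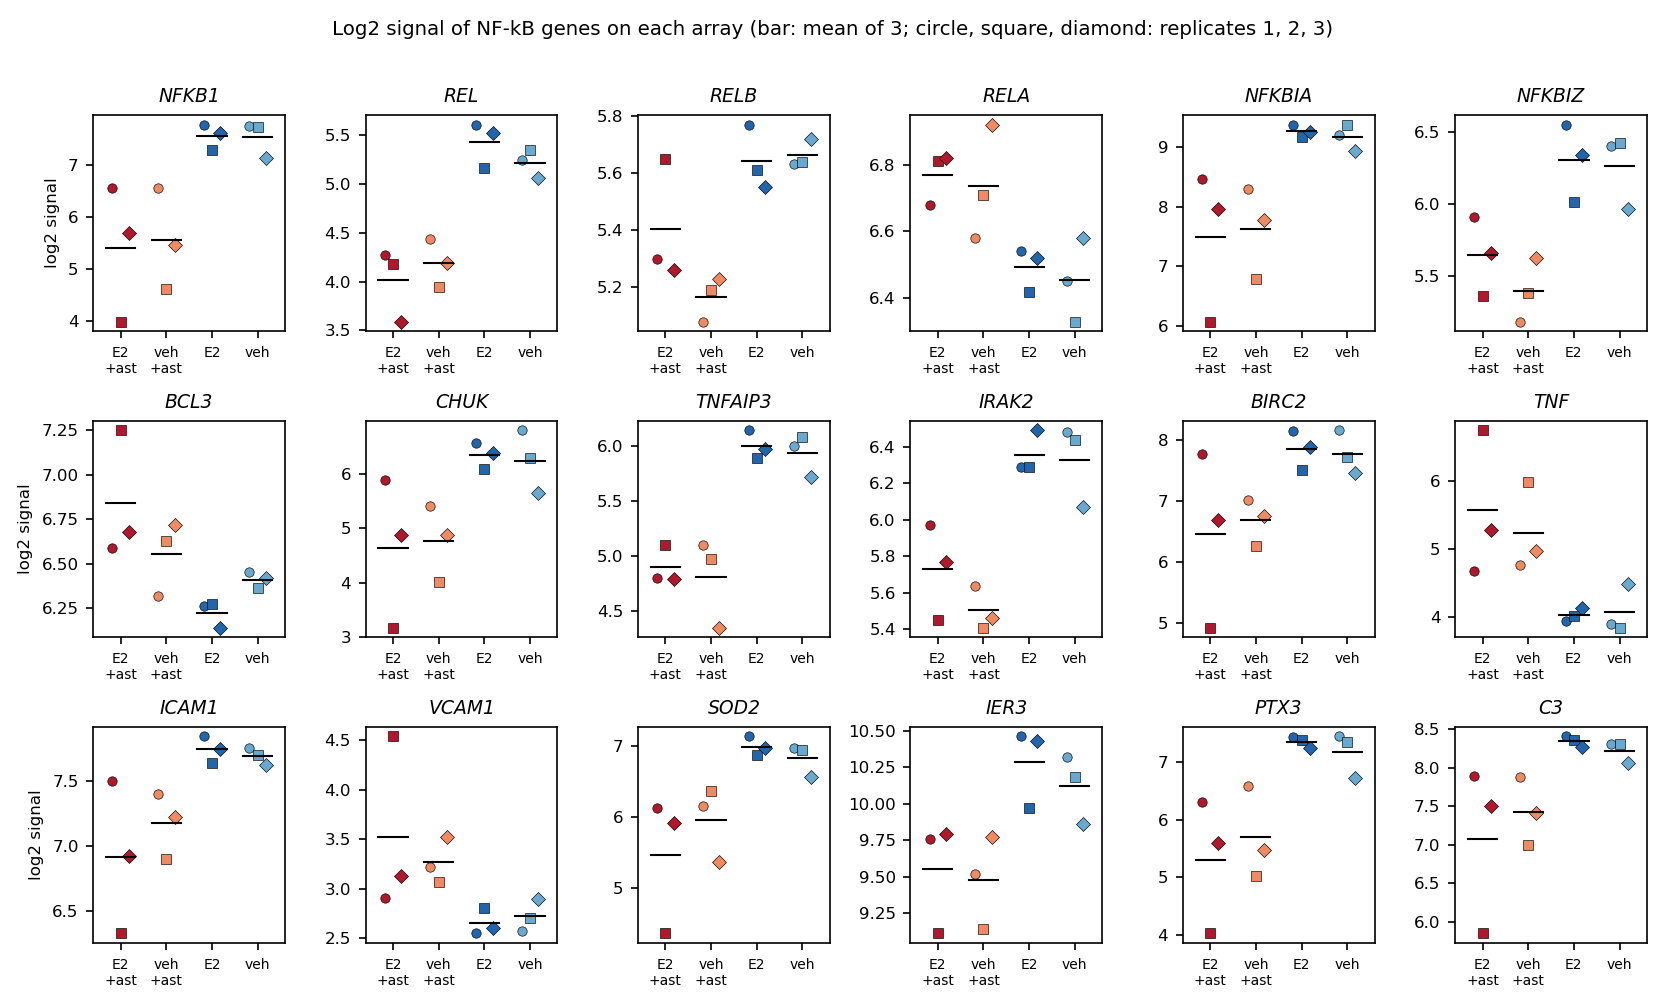
Log2 signal of 18 members on each of the 12 arrays, with E2+ast for estradiol with astrocytes, veh+ast for vehicle with astrocytes, E2 for estradiol alone and veh for vehicle alone. Points are single arrays, with the replicate given by the symbol, and bars are means of 3; REL, TNFAIP3 and IRAK2 are lower on all 6 arrays with astrocytes, and replicate 2 of estradiol with astrocytes is the lowest array for NFKB1, NFKBIA, CHUK, BIRC2, ICAM1, SOD2, IER3, PTX3 and C3.

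Among the subunits, NFKB1, whose product is processed into a DNA-binding partner without a transactivation domain, and REL, an activating subunit, were lower with astrocytes. NFKB1 (probe set 8096635) had log2 signals of 6.54, 3.98 and 5.68 on replicates 1 to 3 of estradiol with astrocytes and 6.55, 4.61 and 5.46 in vehicle with astrocytes, against 7.77, 7.28 and 7.60 in estradiol alone and 7.74, 7.73 and 7.12 in vehicle alone. The groups did not overlap, and replicate 2 was the lowest array of each astrocyte group. NFKB1 fell 4.20-fold, a log2 difference of −2.07 (SE 0.417, limma adjusted p = 0.00585). REL (probe set 8042144) had 4.27, 4.18 and 3.59 in estradiol with astrocytes and 4.44, 3.94 and 4.19 in vehicle with astrocytes, against 5.61, 5.16 and 5.52 in estradiol alone and 5.25, 5.35 and 5.06 in vehicle alone. Every astrocyte array lay below every array alone, with a difference of −1.23 (SE 0.166, limma adjusted p = 0.00246), and here replicate 3, not replicate 2, of estradiol with astrocytes was the lowest.

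RELB, the subunit of the non-canonical pathway, had 5.30, 5.65 and 5.26 in estradiol with astrocytes and 5.08, 5.19 and 5.23 in vehicle with astrocytes, against 5.77, 5.61 and 5.55 in estradiol alone and 5.63, 5.64 and 5.72 in vehicle alone. Replicate 2 of estradiol with astrocytes overlapped the arrays alone, and the other 5 astrocyte arrays were lower. RELB fell by 0.37 (SE 0.125, limma adjusted p = 0.0330), and the call was lost when any of 10 of the 12 arrays was left out. RELA, the main activating subunit, had 6.68, 6.81 and 6.82 in estradiol with astrocytes and 6.58, 6.71 and 6.92 in vehicle with astrocytes, against 6.54, 6.42 and 6.52 in estradiol alone and 6.45, 6.33 and 6.58 in vehicle alone. The groups touch at 6.58, the difference was 0.28 (95% interval 0.01 to 0.55), and it did not pass (limma adjusted p = 0.0749). NFKB2, the precursor of RELB's partner, differed by −0.29 (limma adjusted p = 0.254).

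Of the 5 IkB proteins 2 fell. NFKBIA encodes IkB alpha, the classical inhibitor that NF-kB itself induces. Its signals (probe set 7978644) were 8.46, 6.07 and 7.96 in estradiol with astrocytes and 8.30, 6.79 and 7.77 in vehicle with astrocytes, against 9.38, 9.17 and 9.26 in estradiol alone and 9.20, 9.37 and 8.94 in vehicle alone. All arrays alone were above 8.46, the highest with astrocytes, and NFKBIA fell by 1.66 (SE 0.375, limma adjusted p = 0.00831). NFKBIZ, a nuclear IkB protein that acts as a co-regulator, had 5.91, 5.36 and 5.66 in estradiol with astrocytes and 5.18, 5.38 and 5.62 in vehicle with astrocytes, against 6.55, 6.01 and 6.34 in estradiol alone and 6.40, 6.42 and 5.96 in vehicle alone. Its groups did not overlap either (5.91 against 5.96 at the nearest), and it fell by 0.76 (SE 0.164, limma adjusted p = 0.00714).

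BCL3, another nuclear IkB protein, had 6.59, 7.25 and 6.68 in estradiol with astrocytes and 6.32, 6.63 and 6.72 in vehicle with astrocytes, against 6.26, 6.27 and 6.14 in estradiol alone and 6.45, 6.36 and 6.42 in vehicle alone. Only replicate 1 of vehicle with astrocytes lay within the arrays alone, and the difference of 0.38 (95% interval 0.06 to 0.71) just missed the threshold (limma adjusted p = 0.0510; 0.0434 with the replicate number as a block). The inhibitors NFKBIB and NFKBIE, IkB beta and IkB epsilon, differed by −0.25 (limma adjusted p = 0.208) and −0.37 (limma adjusted p = 0.0570; 0.0483 with the block), and the groups of NFKBIE did not overlap.

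Among the kinases, CHUK, which encodes IKK alpha, fell, while IKBKB and IKBKE, the genes of IKK beta and IKK epsilon, did not pass. CHUK had 5.89, 3.17 and 4.88 in estradiol with astrocytes and 5.42, 4.01 and 4.87 in vehicle with astrocytes, against 6.58, 6.09 and 6.40 in estradiol alone and 6.81, 6.30 and 5.65 in vehicle alone. Its difference was −1.60 (SE 0.414, limma adjusted p = 0.0131), with an overlap between replicate 1 of estradiol with astrocytes and replicate 3 of vehicle alone. IKBKB had 6.56, 4.97 and 6.12 in estradiol with astrocytes and 6.90, 5.91 and 6.53 in vehicle with astrocytes, against 6.58, 6.49 and 6.52 in estradiol alone and 6.63, 6.73 and 6.57 in vehicle alone. Its highest array and its lowest array were both astrocyte arrays, and the difference was −0.42 (95% interval −0.98 to 0.14, limma adjusted p = 0.176). IKBKE had 6.95, 5.73 and 7.04 in estradiol with astrocytes and 6.85, 6.17 and 7.05 in vehicle with astrocytes, against 7.23, 7.23 and 7.16 in estradiol alone and 7.39, 7.10 and 7.16 in vehicle alone. These groups did not overlap, by a margin of 7.05 against 7.10, and the difference of −0.58 did not pass (limma adjusted p = 0.0598; 0.0266 with the block). These 3 members, BCL3, NFKBIE and IKBKE, were the ones whose call the block changed, and with the block and the array SD together none of them passed (limma adjusted p from 0.891 to 0.924).

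Of the 5 measured adaptors and brakes 3 fell. TNFAIP3, a ubiquitin-editing enzyme that is among the best known NF-kB targets and ends its signalling, had (probe set 8122265) 4.80, 5.10 and 4.79 in estradiol with astrocytes and 5.10, 4.97 and 4.35 in vehicle with astrocytes, against 6.14, 5.89 and 5.97 in estradiol alone and 6.0, 6.08 and 5.72 in vehicle alone. The highest astrocyte array, at 5.10, was below the lowest array alone, at 5.72, and TNFAIP3 fell by 1.11, or 2.16-fold (SE 0.161, limma adjusted p = 0.00277). Replicate 2 of estradiol with astrocytes, the array with the narrowest range, was not low for this gene. IRAK2, a kinase-family adaptor of Toll-like and interleukin-1 receptors, had (probe set 8077786) 5.97, 5.45 and 5.77 in estradiol with astrocytes and 5.64, 5.41 and 5.46 in vehicle with astrocytes, against 6.29, 6.29 and 6.49 in estradiol alone and 6.48, 6.44 and 6.07 in vehicle alone. These did not overlap, and IRAK2 fell by 0.72 (SE 0.142, limma adjusted p = 0.00539).

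BIRC2, a ubiquitin ligase of TNF receptor complexes, had 7.76, 4.93 and 6.69 in estradiol with astrocytes and 7.02, 6.26 and 6.76 in vehicle with astrocytes, against 8.14, 7.50 and 7.88 in estradiol alone and 8.15, 7.72 and 7.45 in vehicle alone. It fell by 1.24 (SE 0.389, limma adjusted p = 0.0252), with replicate 1 of estradiol with astrocytes inside the range of the arrays alone, and the call was lost when any of 5 of the 12 arrays was left out (highest adjusted p 0.0640). TNIP1, a partner of TNFAIP3, and the adaptor TRAF1 differed by −0.42 and 0.31 without passing (limma adjusted p = 0.157 and 0.192).

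Of the 5 ligands and receptors 1 rose and none fell. TNF, the cytokine that gives the pathway its best known stimulus, had log2 signals of 4.68, 6.74 and 5.28 in estradiol with astrocytes and 4.76, 5.99 and 4.97 in vehicle with astrocytes, against 3.95, 4.02 and 4.14 in estradiol alone and 3.90, 3.85 and 4.49 in vehicle alone. All astrocyte arrays were higher, most of all replicate 2 of either group, and TNF rose by 1.34 (SE 0.330, limma adjusted p = 0.0111). The 3 probe sets with this symbol hold identical values. LTB, a membrane-bound TNF relative, had 5.29, 6.92 and 5.25 in estradiol with astrocytes and 5.68, 6.03 and 5.74 in vehicle with astrocytes, against 5.18, 5.80 and 5.40 in estradiol alone and 4.98, 4.88 and 5.90 in vehicle alone. The groups overlapped, and the difference of 0.46 (95% interval −0.19 to 1.12) did not pass (limma adjusted p = 0.203). TNFRSF9, a costimulatory receptor, had 3.69, 4.75 and 3.61 in estradiol with astrocytes and 3.62, 4.09 and 3.89 in vehicle with astrocytes, against 4.27, 4.22 and 4.38 in estradiol alone and 4.33, 4.28 and 4.02 in vehicle alone. It lay at −0.31 (limma adjusted p = 0.204), with replicate 2 of estradiol with astrocytes the highest array of all and the other astrocyte arrays at or below 4.09. TLR2, a receptor for bacterial lipoproteins, and CD83, a surface protein of activated antigen-presenting cells, differed by 0.14 and −0.18 and did not pass (limma adjusted p = 0.406 and 0.214).

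Both adhesion molecules bind leukocyte integrins, and they moved in opposite directions. ICAM1 had 7.50, 6.33 and 6.92 in estradiol with astrocytes and 7.40, 6.90 and 7.22 in vehicle with astrocytes, against 7.84, 7.64 and 7.74 in estradiol alone and 7.75, 7.70 and 7.62 in vehicle alone. It fell by 0.67 without overlap (SE 0.189, limma adjusted p = 0.0175). VCAM1 had 2.91, 4.54 and 3.13 in estradiol with astrocytes and 3.22, 3.07 and 3.52 in vehicle with astrocytes, against 2.55, 2.81 and 2.61 in estradiol alone and 2.57, 2.71 and 2.90 in vehicle alone. Its arrays with astrocytes were all higher, if only by 2.91 against 2.90 at the nearest, and it rose by 0.71 (SE 0.249, limma adjusted p = 0.0377). That call held for 4 of the 12 arrays left out in turn.

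SOD2, the mitochondrial superoxide dismutase that NF-kB induces against oxidative death, had 6.13, 4.35 and 5.91 in estradiol with astrocytes and 6.16, 6.37 and 5.36 in vehicle with astrocytes, against 7.14, 6.88 and 6.97 in estradiol alone and 6.98, 6.95 and 6.57 in vehicle alone. It fell by 1.20 without overlap (SE 0.293, limma adjusted p = 0.0109). IER3, an early-response gene of survival and stress signalling, had 9.76, 9.11 and 9.79 in estradiol with astrocytes and 9.52, 9.14 and 9.77 in vehicle with astrocytes, against 10.46, 9.97 and 10.43 in estradiol alone and 10.32, 10.18 and 9.86 in vehicle alone. The groups did not overlap, by 9.79 against 9.86 at the nearest. IER3 fell by 0.69 (SE 0.183, limma adjusted p = 0.0142), and its other 2 probe sets differed by −0.60. BCL2A1, a survival protein of the BCL2 family, had 4.86, 4.80 and 4.70 in estradiol with astrocytes and 4.68, 4.07 and 4.16 in vehicle with astrocytes, against 4.74, 4.76 and 5.02 in estradiol alone and 5.29, 4.68 and 4.47 in vehicle alone. It overlapped between the groups and lay at −0.28 (limma adjusted p = 0.181).

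Among the secreted innate immune products, PTX3, a pentraxin that opsonises microbes, and C3, the central complement component, fell. PTX3 (probe set 8083594) had 6.30, 4.02 and 5.60 in estradiol with astrocytes and 6.59, 5.02 and 5.47 in vehicle with astrocytes, against 7.44, 7.38 and 7.24 in estradiol alone and 7.45, 7.36 and 6.73 in vehicle alone. It fell by 1.77, or 3.40-fold, without overlap (SE 0.369, limma adjusted p = 0.00657). C3 had 7.89, 5.85 and 7.50 in estradiol with astrocytes and 7.88, 7.0 and 7.41 in vehicle with astrocytes, against 8.41, 8.36 and 8.27 in estradiol alone and 8.31, 8.31 and 8.06 in vehicle alone. These did not overlap, C3 fell by 1.03 (SE 0.302, limma adjusted p = 0.0196), and without replicate 2 of vehicle with astrocytes its adjusted p was 0.0520.

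TNFAIP6, a hyaluronan-binding protein of inflamed tissue, was the gene that rose in this group. Its signals were 2.96, 4.05 and 3.08 in estradiol with astrocytes and 3.24, 3.17 and 3.38 in vehicle with astrocytes, against 2.67, 2.78 and 2.78 in estradiol alone and 2.66, 2.81 and 3.12 in vehicle alone. Replicate 2 of estradiol with astrocytes stood well above the other arrays, the groups overlapped through replicate 3 of vehicle alone, and TNFAIP6 rose by 0.51 (SE 0.190, limma adjusted p = 0.0457), a call that held for 4 of the 12 arrays left out in turn. TNFAIP2 and the siderophore-binding protein LCN2 differed by −0.33 and 0.28 without passing (limma adjusted p = 0.0835 and 0.179).

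The size of a difference between arrays with and without astrocytes went with the level of signal over all genes. In steps of 0.5 on the log2 scale, the median difference was 0.46 for the 1764 genes with a mean signal of 3.5 to 4.0 and −0.67 for the 992 genes with 7.0 to 7.5. Set against the median of all genes in its own step, REL lay lowest among the members, at −1.53, since genes of its level had a median of 0.30. The mean takes in the arrays with astrocytes, so a gene that fell is placed lower by its own fall. The order of the members can depend on this choice. NFKB1 lay at −1.42, CHUK at −1.26, PTX3 at −1.20, NFKBIA at −1.09 and TNFAIP3 at −1.01. Over all 33 members 19 lay below the median of their step and 13 above it. More than 0.5 below were 10 members, and more than 0.5 above were 5, among them RELA at 0.93, LTB at 0.80 and LCN2 at 0.61. Of the 14 members that fell, and were thus already picked for low values, 13 were below the median of their step. ICAM1, at −0.67, was level with it. TNF lay 1.04 above its step and BCL3 1.04, while VCAM1 and TNFAIP6, weak signals both, lay 0.27 and 0.07 above theirs. Among genes above the median level 13 of 25 members fell (52.0%) and none rose, against 35.2% lower and 10.6% higher of 8979 genes, with a median of −0.58 over the members and −0.48 over those genes.

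**Figure D2:**
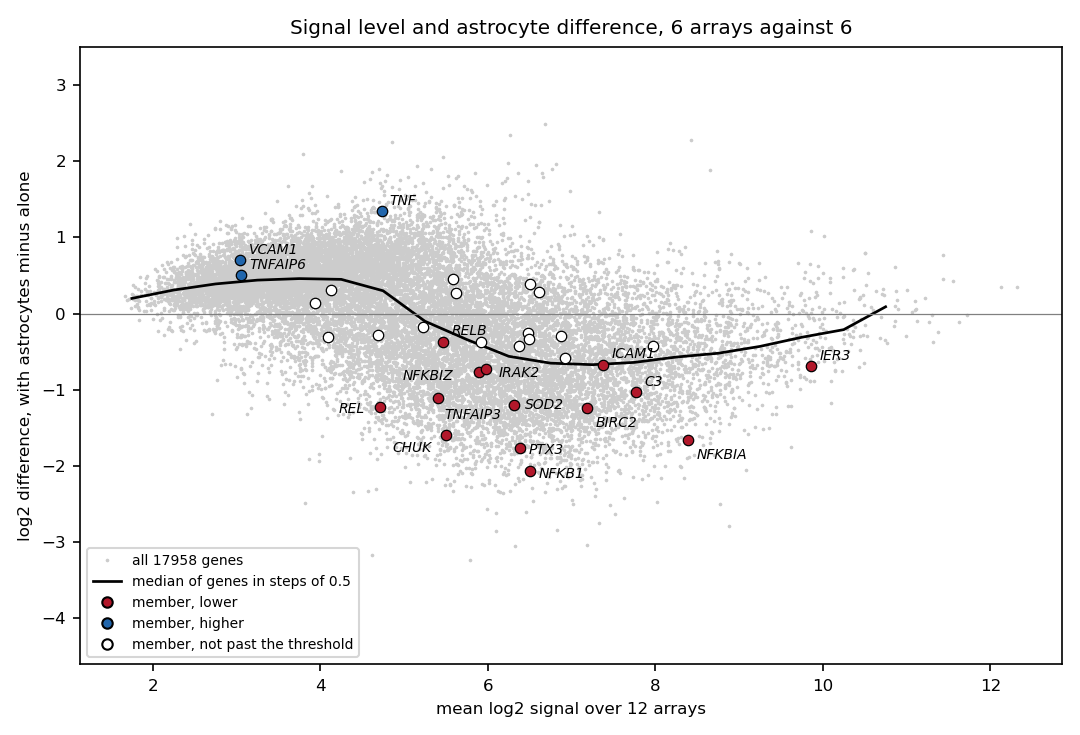
Mean log2 signal over the 12 arrays (x axis) against the log2 difference of arrays with astrocytes minus arrays alone (y axis), for all 17958 genes in grey and the 33 members as circles, red where they fell, blue where they rose and white where they did not pass. The black line joins the medians of all genes in steps of 0.5, and NFKB1, REL, NFKBIA, CHUK, TNFAIP3 and PTX3 lie at least 1.01 below the median of their own step.

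When each array's SD entered the fit as a covariate, 7 members fell and none rose, 21.2% of the members against 5.82% of all genes lower and 8.57% higher. They were REL at −1.11, TNFAIP3 at −1.17, NFKB1 at −0.71, RELB at −0.54, IRAK2 at −0.44, PTX3 at −0.59 and TNFRSF9 at −0.75, with limma adjusted p between 0.00496 and 0.0465. The difference of TNFAIP3 and REL was thus about as large as without the covariate, that of NFKB1 and PTX3 smaller, and TNFRSF9, which did not pass on the deposited values, was called in 4 of 20 settings. NFKBIA lay at −0.46, SOD2 at −0.50, CHUK at −0.21 and C3 at −0.09 in that fit, and none of them passed. TNF, at 0.29, VCAM1, at 0.06, and TNFAIP6, at 0.04, did not pass either. BIRC2 changed sign, to 0.03. The array SD is computed from the same signals and goes with co-culture. It was 1.62 to 2.10 in estradiol and 1.82 to 2.04 in vehicle with astrocytes, against 2.12 to 2.20 and 2.04 to 2.22 alone. The covariate can therefore take out part of a real astrocyte difference. A call lost in that fit does not show that the difference was absent. Of the 17 members called on the deposited values 5 were called in every planned setting in which they were tested, namely NFKB1, REL, TNFAIP3, IRAK2 and PTX3. REL was among the genes tested in 20 of the 21 settings, since its mean lay below the median level.

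**Figure D3:**
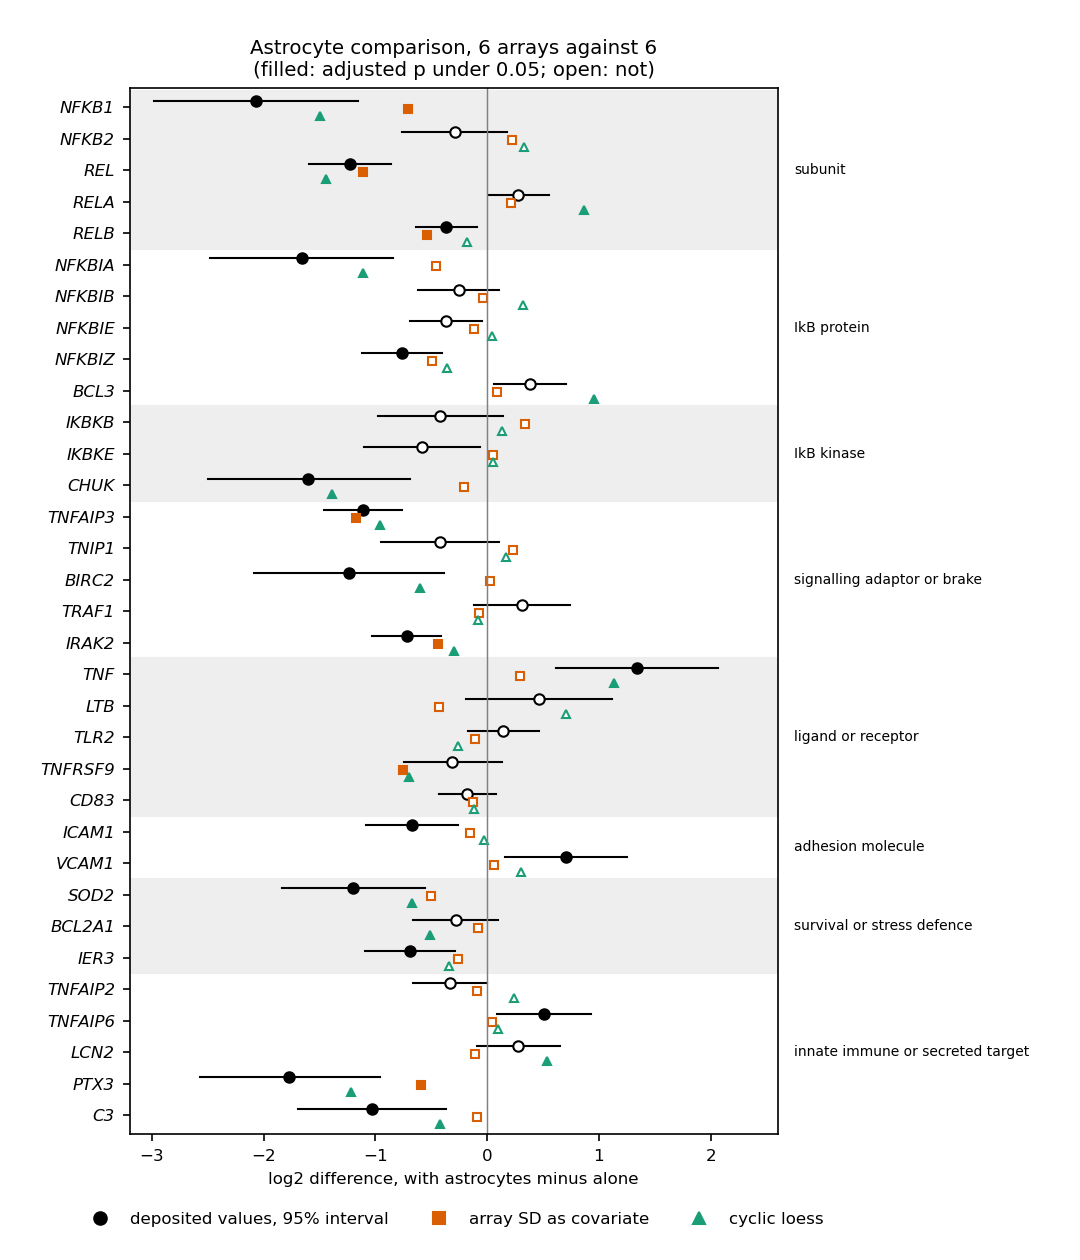
Log2 difference of the 6 arrays with astrocytes minus the 6 arrays alone for each of the 33 members, by role, with the 95% interval of the fit on the deposited values (circles) and the estimates with the array SD as a covariate (squares) and after cyclic loess normalization (triangles). Filled symbols have an adjusted p under 0.05; NFKB1, REL, TNFAIP3, IRAK2 and PTX3 are filled in all 3, and TNF, VCAM1 and TNFAIP6 are open with the covariate.

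Replicate 2 of estradiol with astrocytes was the lowest of the 6 astrocyte arrays in 9 of the 14 members that fell (64.3%, against 69.0% of all genes that fell). It was the highest in all 3 members that rose (78.8% of all genes that rose). The 5 members that fell without this array being lowest were REL, RELB, NFKBIZ, TNFAIP3 and IRAK2. Without replicate 2 of both astrocyte groups 15 members fell and 3 rose, where 21.6% of all genes fell and 23.2% rose.

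Under vehicle, 3 arrays with astrocytes against 3 alone, no member passed in limma, where 0.0557% of all genes did. An unadjusted p under 0.05 was found for 11 of the 33 members and for 5073 of the 17958 genes. The median over the members was −0.37, and 0.06 over all genes. The smallest adjusted p values were those of TNFAIP3, at −1.13 (limma adjusted p = 0.0763), REL, at −1.03 (limma adjusted p = 0.0791), and IRAK2, at −0.83 (limma adjusted p = 0.0848). NFKB1 lay at −1.99 with a wide 95% interval (−3.28 to −0.70), NFKBIA at −1.55 and TNF at 1.16. Adding the array SD as a covariate gave 5 members that fell under vehicle, TNFAIP3 at −1.18, REL at −0.94, NFKB1 at −0.82, RELB at −0.64 and IRAK2 at −0.58 (limma adjusted p from 0.0188 to 0.0408), 15.2% of the members against 2.39% of all genes. Leaving out replicate 2 of estradiol with astrocytes, which enters this comparison only through the shared spread, gave 15 calls (6107 over all genes). Leaving out replicate 1 of estradiol with astrocytes gave 5 (1122 over all genes), and so did replicate 1 of vehicle with astrocytes (1630 over all genes).

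Under estradiol 6 members fell and none rose with astrocytes, 18.2% lower against 8.15% of all genes lower and 5.03% higher. REL lay at −1.42 (limma adjusted p = 0.0294), TNFAIP3 at −1.10 (limma adjusted p = 0.0338), PTX3 at −2.05 (limma adjusted p = 0.0385), SOD2 at −1.53 (limma adjusted p = 0.0417), NFKB1 at −2.15 (limma adjusted p = 0.0426) and NFKBIA at −1.77 (limma adjusted p = 0.0489). TNF, at 1.53, just missed the threshold (limma adjusted p = 0.0507). The median was −0.50 over the members and 0.07 over all genes. These calls depended on single arrays: none of the members was called without any 1 of the estradiol alone arrays, without replicate 1 or 2 of vehicle alone or without replicate 3 of estradiol with astrocytes, and 2 were without replicate 2 of estradiol with astrocytes or replicate 3 of vehicle with astrocytes. Without replicate 3 of vehicle alone 3 were called (1547 over all genes), and without replicate 1 of estradiol with astrocytes 20 (9222 over all genes). REL, at −1.29, and TNFAIP3, at −1.16, still passed with the array SD in the fit (limma adjusted p = 0.0284 and 0.0375), where 1.02% of all genes fell. The vehicle and estradiol comparisons share no arrays but share 1 estimate of the spread.

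Estradiol itself was compared with vehicle in cells with astrocytes and in cells alone. No member passed in either comparison, and no gene did (0% of 17958 in limma, with an unadjusted p under 0.05 for 142 genes with astrocytes and 1 gene alone, none of them a member). Both counts were below the share of 0.05 expected without any difference, so the test was strict here. Its spread was pooled over all groups. With only the arrays compared in the fit, the counts were 11 genes with astrocytes and 37 alone, again without a member. The lack of calls therefore does not show that estradiol had no effect. Adjusted p values were 1.000 for the members named below. With astrocytes the smallest p values were those of BCL2A1, IKBKB and BCL3. BCL2A1 had 4.86, 4.80 and 4.70 in estradiol with astrocytes, against 4.68, 4.07 and 4.16 in vehicle with astrocytes. The difference was 0.48 (95% interval −0.05 to 1.02), with 4.70 against 4.68 at the nearest. IKBKB differed by −0.56 (95% interval −1.35 to 0.23) and BCL3 by 0.29 (95% interval −0.17 to 0.74), and the arrays of each overlapped.

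In cells alone REL differed by 0.21 (95% interval −0.30 to 0.72), BCL3 by −0.19 (95% interval −0.64 to 0.27) and IER3 by 0.17 (95% interval −0.40 to 0.74) between estradiol and vehicle. BCL3 had 6.26, 6.27 and 6.14 in estradiol alone, against 6.45, 6.36 and 6.42 in vehicle alone. For the more variable members the intervals were wide, such as −1.43 to 1.15 for NFKB1 with astrocytes, and take in differences of either sign. Because the spread was pooled, the intervals in cells alone also reflect the spread of the arrays with astrocytes. Whether the astrocyte difference itself depended on estradiol was tested as an interaction, and again no member and no gene passed (31 genes and no member with an unadjusted p under 0.05). BCL3 lay at 0.47 (95% interval −0.18 to 1.12), BCL2A1 at 0.45 (95% interval −0.31 to 1.21) and REL at −0.39 (95% interval −1.11 to 0.34), and the 6 calls under estradiol against none under vehicle are therefore not shown to differ.

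**Figure D4:**
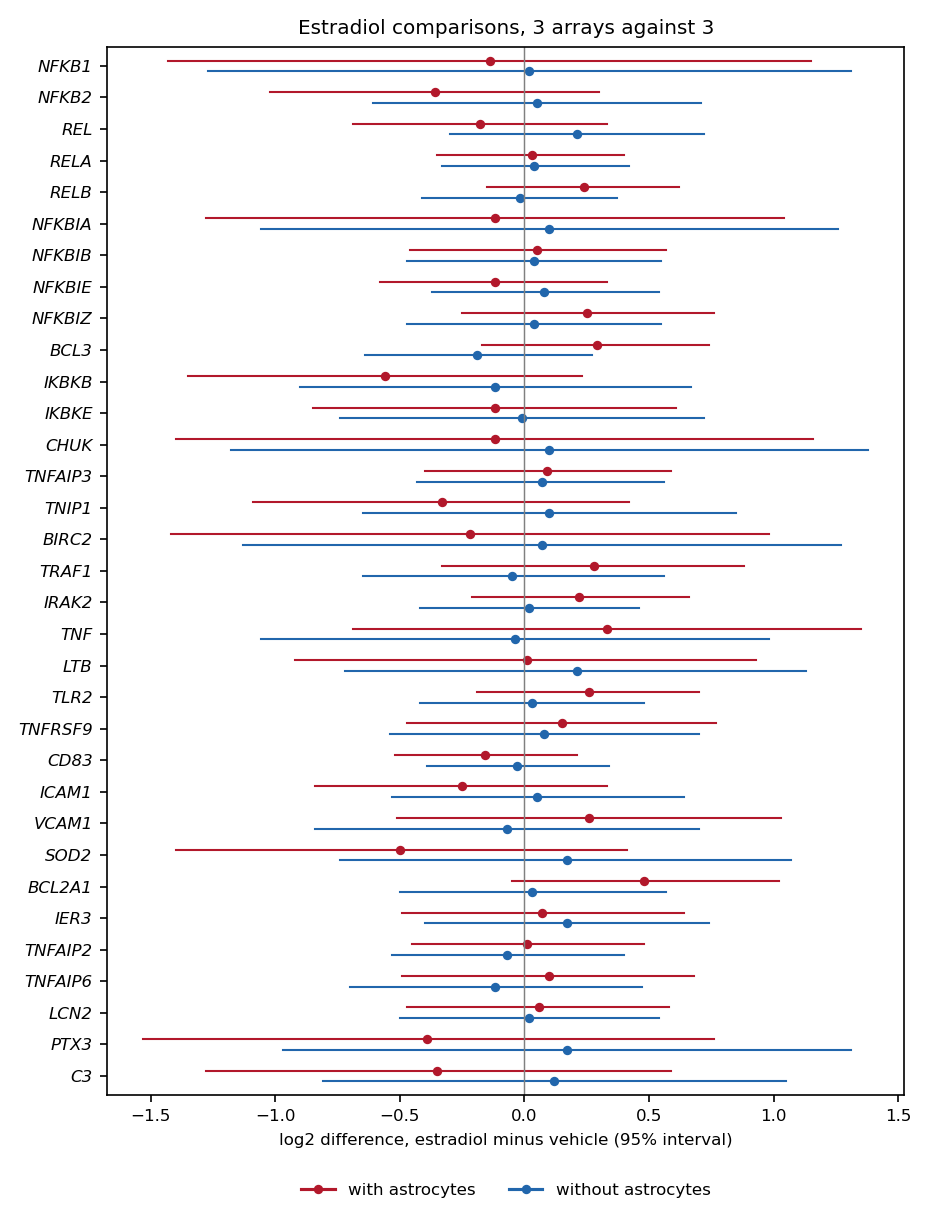
Log2 difference of estradiol minus vehicle with its 95% interval for the 33 members, in cells with astrocytes (red, upper of each pair) and in cells alone (blue, lower). Every interval includes 0, and the widest are those of NFKB1, CHUK and BIRC2.

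Other genes of the pathway came from a list of receptors, adaptors, kinases and brakes that holds none of the members. Of 42 measured 17 fell with astrocytes over both treatments, 1 rose and 24 did not pass, with a median of −0.57. The share that fell was 40.5% and the share that rose 2.38%, against 23.0% lower and 24.5% higher over all genes. TAB3, a subunit of the kinase complex that activates the IkB kinases, lay at −1.55, and IRAK3, an inhibitory relative of IRAK2, at −1.46. TRAF3, a brake on the non-canonical branch, lay at −1.29 and ZC3H12A, an RNase that degrades inflammatory RNAs, at −0.66. The limma adjusted p of these 4 was between 0.00426 and 0.00758, and the arrays with astrocytes overlapped those alone for TRAF3 but not for the other 3. The gene that rose was SHARPIN, of the linear ubiquitin ligase, at 0.68 (limma adjusted p = 0.0110), named here after its value was seen. Once the array SD was included 2 of the 42 fell (4.76%, against 5.82% of all genes) and 1 rose (2.38%, against 8.57%), and their median was −0.01, against −0.11 over the members.

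A second list held further NF-kB targets outside the members. Of 22 measured 5 fell and 5 rose, with a median of −0.12, and each share, 22.7%, was close to that of all genes (23.0% lower and 24.5% higher). KYNU, an enzyme of tryptophan breakdown, fell by 1.37, SAA2, an acute-phase protein, by 0.53 and CFLAR, an inhibitor of death receptor signalling, by 0.48, while GADD45B, a stress sensor, rose by 0.64. The limma adjusted p of these 4 was between 0.00528 and 0.0154, and none of them overlapped between arrays with astrocytes and arrays alone. Of the 22, with the array SD included, 1 fell (4.55%, against 5.82% of all genes) and 3 rose (13.6%, against 8.57%).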

How the data were processed

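RNA of sorted 231BR cells was measured on 12 single-colour Affymetrix Human Gene ST arrays, 3 for each of 4 groups. The deposited values are log2 signals per probe set. RMA and Partek appear in the submitters' processing notes with no version, role or order, so the settings of background correction and normalization are not given in the sources used here. No read depth exists for arrays, and their number limits the precision.

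The platform annotation gives 1 symbol to 19181 of the 33297 probe sets and several to 2055, and the probe set with the highest mean was taken for each of the 895 genes with several, which left 17958 genes. Low values were not filtered out. The model, fitted with limma 3.58.1 under R 4.3.3 to all 12 arrays, had a mean for each group (lmFit), from which 6 two-sided contrasts were taken (contrasts.fit, eBayes). Benjamini-Hochberg adjustment ran over all genes of a contrast, and calls have an adjusted p under 0.05. Intervals are 95% intervals of that fit. The steps were tested on simulated data with independent noise on each array. Those data lack the narrower range of the astrocyte arrays, so the fit was not tested under it.

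The members and the 6 other gene lists were chosen with earlier results of these data known. Named with their values are members past the threshold in an astrocyte comparison, the 3 members with the smallest p in each role, the 4 genes with the smallest p in the lists of other pathway genes and targets, and the 3 members with the smallest p in each estradiol contrast. Markers and a few genes in counts are named besides.

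Alternatives were a replicate block, quantile and cyclic loess normalization, the array SD as a covariate, averaged probe sets, trend and robust eBayes, the compared arrays only, genes above the median level, a threshold of 0.1, and arrays left out. Adding the block to the array SD, and fitting the astrocyte groups alone with the block, were chosen after seeing the data. Between estradiol and vehicle with astrocytes, deviations of same-number arrays from their groups' means correlated at r of 0.789, 0.756 and 0.214. The values thus pair replicates 1 and 2 there by number. Replicate 3 of estradiol with astrocytes went more with replicate 1 of vehicle with astrocytes (0.396), so the values do not pair replicates 3. In each other comparison r was under 0.1 for at least 1 pair of the same number, so the values do not pair all arrays there by number. In cells alone, replicates 1 reached 0.720, but replicate 2 of estradiol went with replicate 3 of vehicle (0.760).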

Additional observations from a re-analysis of the deposited data

How the results depend on the processing

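The count of members called moved by over 1.5 times under the settings that follow. With astrocytes under vehicle, where 0 were called, it was 5 at a threshold of 0.1, 8 with the replicate block, 6 after cyclic loess, 5 with the array SD as a covariate, 9 with only the arrays compared, 6 without replicates 2 of both astrocyte groups and 4 with both the array SD and the block, and 0 to 15 when each array was left out in turn. Under estradiol, where 6 were called, it was 16 at a threshold of 0.1, 15 with the block, 1 after quantile normalization, 11 after cyclic loess, 2 with the array SD, 0 with only the arrays compared and 2 with the array SD and the block, and 0 to 20 with each array left out. Over both treatments, where 17 were called, it was 7 with the array SD and 5 with the array SD and the block. With the block alone it moved less, to 20. The count over all 17958 genes moved too. Under vehicle it was 10 on the deposited values, 2583 with the block, 1741 after cyclic loess and 1166 with the array SD. Under estradiol it was 2366 on the deposited values, 6691 with the block and 529 after quantile normalization. There cyclic loess gave 4417, the array SD 469 and only the arrays compared 0. Over both treatments it was 8528 on the deposited values and 10278 with the block. With the array SD it was 2584, and 2109 with the block added.

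The median over the members under vehicle was −0.37, against −0.08 after quantile normalization, −0.18 after cyclic loess and −0.16 with the array SD. Under estradiol it was −0.50, against −0.13, −0.04 and −0.14 in the same order, −0.24 without replicates 2 of both astrocyte groups, −0.18 with the array SD and the block, and −0.71 to −0.24 with each array left out. Over both treatments it was −0.37, against −0.12, −0.12 and −0.11 in that order and −0.58 among genes above the median level.

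Some named members changed sign, and the cause was not tested. With the array SD under vehicle the values were −0.11 for BCL3, 0.46 for IKBKB, 0.02 for IKBKE, 0.003 for BIRC2, −0.21 for LTB, −0.02 for VCAM1, −0.004 for TNFAIP6 and 0.02 for C3. With the block added they were −0.14 for BCL3, 0.47 for IKBKB, 0.02 for IKBKE, −0.34 for LTB, −0.10 for VCAM1, −0.09 for TNFAIP6 and 0.08 for C3. With the array SD under estradiol they were 0.22 for IKBKB, 0.08 for IKBKE, 0.06 for BIRC2, −0.65 for LTB and 0.17 for BCL2A1, and with the block added 0.24 for IKBKB, 0.07 for IKBKE, −0.83 for LTB and −0.03 for TNFAIP6. With the array SD over both treatments they were 0.34 for IKBKB, 0.05 for IKBKE, 0.03 for BIRC2 and −0.43 for LTB, and with the block added 0.35 for IKBKB, 0.04 for IKBKE, −0.59 for LTB, −0.04 for VCAM1 and −0.06 for TNFAIP6. Cyclic loess gave 0.26 for IKBKB under vehicle, 0.12 for IKBKE under estradiol, and 0.13 for IKBKB and 0.05 for IKBKE over both. Quantile normalization gave 0.23 for IKBKB under vehicle and 0.09 for RELB under estradiol. With each array left out in turn IKBKB under vehicle was −0.42 to 0.07, LTB under estradiol −0.19 to 0.65 and BCL2A1 under estradiol −0.11 to 0.03. The turn came without replicate 2 of vehicle with astrocytes, replicate 2 of estradiol with astrocytes and replicate 3 of estradiol alone in that order. Without replicates 2 of both astrocyte groups IKBKB was at 0.07 and LTB at −0.19.

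Counted over the 23 members named for the astrocyte comparisons and all settings, including arrays left out, a value kept its direction but lost its call 65 times over both treatments and 67 times under estradiol, and gained a call 18, 40 and 68 times over both treatments, under estradiol and under vehicle.

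The estradiol contrasts and the interaction called 0 members in limma under every setting run, the replicate block and the fit of the astrocyte groups alone with the block included. The block changed no call there, and it is given for the other contrasts although no label gives the meaning of a number. Deviations of same-number arrays correlated below 0.1 in at least 1 pair of each of those contrasts. With 3 arrays a group, an exact permutation test of a single gene cannot give a two-sided p below 0.1.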
